A study of Mus musculus with 6 samples.

Results

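RNA-seq of T follicular helper (Tfh) cells was examined for 10 genes of the transforming growth factor-β (TGF-β) pathway. They were the ligand gene *Tgfb1*, the receptor genes *Tgfbr1* and *Tgfbr2*, the SMAD genes *Smad2*, *Smad3*, *Smad4* and *Smad7*, the corepressor genes *Ski* and *Skil*, and the ubiquitin ligase gene *Smurf2*. The genes were chosen by symbol, and 10 of 10 were found among the 14744 gene symbols of the deposited table. All 10 passed the filter on low values, a normalized count of at least 10 in at least 3 libraries, which left 11296 genes for testing.

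Tfh cells give help to germinal center B cells, and BACH2 is a transcriptional repressor that restrains effector differentiation in T cells. The study asked what loss of BACH2 in T cells does to Tfh cells. The WT group had 3 samples from WT mice and the Bach2-cKO group had 3 samples from Bach2fl/flCd4-cre mice, in which Cd4-cre removes the floxed *Bach2* alleles. The sample labels give the strain of both groups as C57BL/6, the paper names a C57BL/6J background, and the mice were 2 to 3 months old. The study gives the name WT to littermates that carry Cd4-Cre, whereas the sample labels say only WT. Cd4-Cre is active from the stage at which thymocytes express CD4, so the deletion is not limited to Tfh cells. The cells came from the mesenteric lymph nodes (MLNs), 10000 to 30000 per sample, and the sort took CD4+B220-CD44+PD-1+CXCR5+ cells. This gate has no Foxp3 stain, and T follicular regulatory (Tfr) cells can lie within it.

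The values are normalized counts, the reads counted on a gene divided by a size factor of the library. Reads recovered from the steps of these values came to 6585742 and 7823717 for WT replicates 2 and 3, and to 5045131, 10987752 and 7197242 for replicates 1, 2 and 3 labelled Bach2-cKO. WT replicate 1 had 7737531 reads if a step is taken as 1 read. That library stood apart: its count of genes with a value above 0 was 11648, while the rest had between 13111 and 13567. Values without it are given beside those of each of the 10 genes. The labels do not say that the replicates are separate animals, so p-values measure only the spread between these samples, which may be technical.

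*Bach2*, the deleted gene, was examined first. It lies on chromosome 4 of GRCm38 (chr4:32238804-32586108, plus strand). It was at 233, 222 and 105 normalized counts in WT replicates 1, 2 and 3, and at 399, 763 and 591 in replicates 1, 2 and 3 labelled Bach2-cKO. All 3 libraries labelled Bach2-cKO were thus above all 3 WT libraries, with a log2 fold change (log2FC) of 1.68 ± 0.37 (standard error, SE) and a limma adjusted p of 0.141. DESeq2 on the reads of 5 libraries gave 1.81 (adjusted p = 0.00123) and limma with a weight for each library 2.36 (adjusted p = 0.000186), both past the study's thresholds of an adjusted p under 0.01 and over 2-fold change, whereas edgeR on the same 5 libraries gave 1.83 (adjusted p = 0.148). After removal of a trend in transcript length and GC content, described below, limma gave 1.26 (unadjusted p = 0.0111, adjusted p = 0.237). Without WT replicate 1 the log2FC was 1.88. The counts are of the whole gene and do not set its floxed part apart, and *Bach2it1* and *Bach2os*, which overlap it, have values of their own in the table. The level of *Bach2* over the whole gene was thus higher under the label of its deletion. This level does not show whether the floxed part was removed. For this reason the text speaks of libraries labelled Bach2-cKO throughout, and every direction below is a direction between labels. Between these labels the log2FC was -1.76 for *Foxp3*, -2.02 for *Ifng* and 1.48 for *Gata3*, genes described below. Why *Bach2* was higher in the libraries labelled Bach2-cKO was not tested.

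TGF-β is secreted in a latent form and released from it by integrins and other activators. The active ligand binds the type II receptor TGFBR2, which recruits and phosphorylates the type I receptor TGFBR1. TGFBR1 in turn phosphorylates SMAD2 and SMAD3, which join SMAD4 and enter the nucleus to regulate transcription. SMAD7 blocks the receptor and brings SMURF2 to it for ubiquitination, while SKI and SKIL (SnoN) bind SMAD complexes and repress their targets. In T cells the pathway restrains activation and effector differentiation, and it induces Foxp3 in peripheral regulatory T cells.

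The study's methods set the thresholds at an adjusted p under 0.01 with over 2-fold change, and at these limma called 0 of the 10 genes higher and 0 lower, against 0% of the 11296 genes tested in either direction. The smallest limma adjusted p was 0.141 over all genes and also 0.141 among the 10, for *Tgfbr2*. At an unadjusted p under 0.05, 3 of the 10 were higher in the libraries labelled Bach2-cKO (*Tgfbr2*, *Smad3* and *Smurf2*) against 10.1% of all genes tested, and 1 was lower (*Tgfb1*) against 10.2%. The groups did not overlap for 4 genes that were higher (*Tgfbr2*, *Smad3*, *Smad4* and *Smurf2*) against 14.6% of all genes, and for 3 that were lower (*Tgfb1*, *Smad2* and *Skil*) against 12.2%. The sign of the log2FC was positive for 7 of the 10 and negative for 3, and the median log2FC was 0.53, beside 0.08 over all genes tested. This median was 0.29 after removal of the length and GC trend and 0.34 without WT replicate 1. A single gene measured in 3 libraries against 3 cannot reach an exact two-sided permutation p under 0.1.

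Other tests gave the following counts. DESeq2 on the reads of the 5 libraries with recovered reads, 2 WT and 3 labelled Bach2-cKO, called 0 of the 10 at the same thresholds, against 0.797% of the genes in either direction. At an adjusted p under 0.05 it again took 0 of the 10, against 3.26%. edgeR on the same reads called 0 genes, with 2070 genes at an unadjusted p under 0.05, against 2158 with DESeq2 and 2301 with limma. In both count tests *Tgfb1*, *Tgfbr2* and *Smad3* had an unadjusted p under 0.05. Limma with a weight for each library, 0.206 for WT replicate 1 and 5.54 for replicate 2 labelled Bach2-cKO, called *Smad3* higher and 0 of the 10 lower, against 4.97% of all genes called higher and 5.02% lower. *Tgfb1* and *Tgfbr2* had an unadjusted p under 0.05 in every setting run, including each with 1 library left out. The settings share libraries and are not independent, and the share of all genes with an unadjusted p under 0.05 in every setting was not determined. With limma on all libraries the count was 4 genes at that threshold, beside 2301 of all 11296 genes. It was 3 without WT replicate 1 (2171 of all genes), 6 without WT replicate 2 (2517) and 2 without WT replicate 3 (1885). Among the libraries labelled Bach2-cKO, it was 2 without replicate 1 (1074), 2 without replicate 2 (1204) and 4 without replicate 3 (3070).

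**Figure D1:**
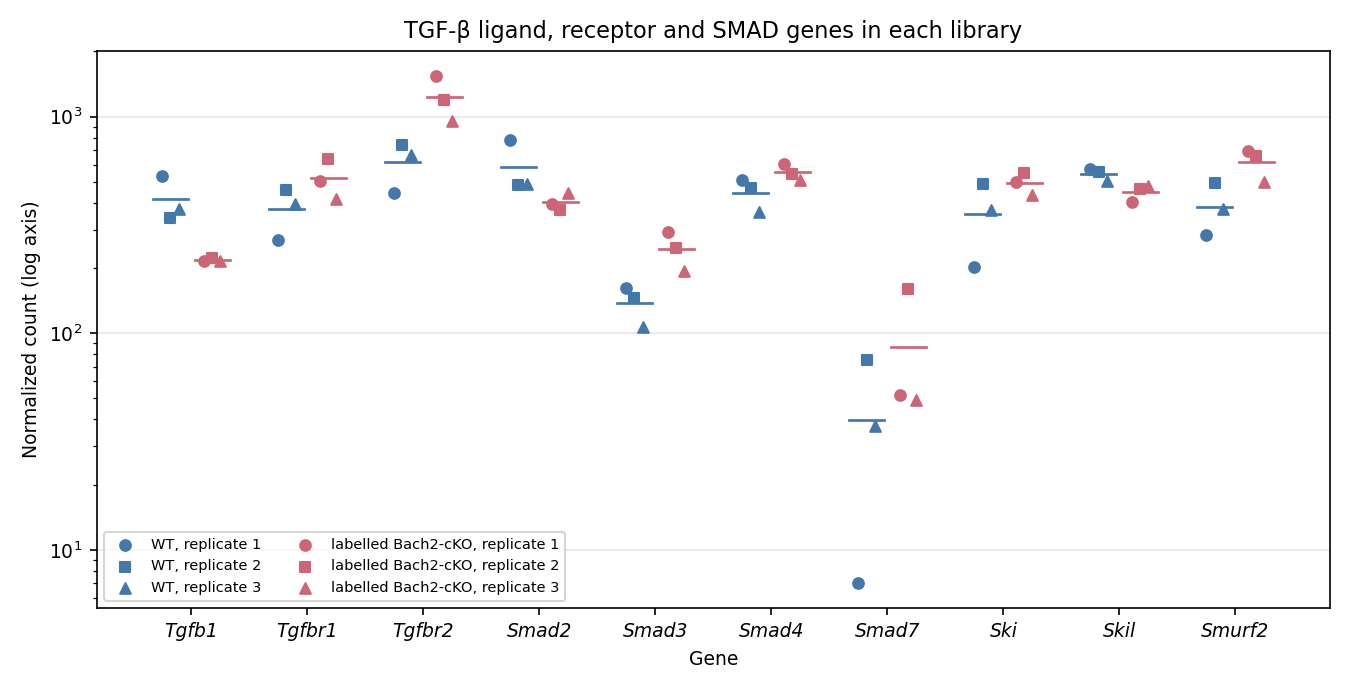
Normalized count (log axis) of each of the 10 genes in each library, with WT in blue, the libraries labelled Bach2-cKO in red, a symbol for each replicate number and a line at each group's mean. *Tgfb1* lies between 340 and 530 in WT and between 216 and 222 in the libraries labelled Bach2-cKO, whereas *Tgfbr2* lies between 443 and 740 in WT and between 956 and 1539 in the other group.

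The promoters of *Tgfb1*, *Tgfbr2* and *Smad3* are shown because these 3 genes had an unadjusted p under 0.05 with limma, edgeR and DESeq2. Each is the 250 bases before the transcription start in RefSeq on GRCm38.p6, written 5′ to 3′ on the gene's own strand. They lie at chr7:25686752-25687001 (plus strand) for *Tgfb1*, chr9:116175364-116175613 (minus strand) for *Tgfbr2* and chr9:63757995-63758244 (minus strand) for *Smad3*, each just upstream of the annotated gene. Of the 10 genes, 6 were matched to a promoter, and *Smad2*, *Smad4*, *Smad7* and *Skil* were not. Both strands were searched for TGANTCA, the core of the element bound by AP-1 and BACH2, and for CAGAC, a SMAD-binding element. The ends of these motifs can overlap by 2 letters, CA. Capitals mark a match.
Tgfb1: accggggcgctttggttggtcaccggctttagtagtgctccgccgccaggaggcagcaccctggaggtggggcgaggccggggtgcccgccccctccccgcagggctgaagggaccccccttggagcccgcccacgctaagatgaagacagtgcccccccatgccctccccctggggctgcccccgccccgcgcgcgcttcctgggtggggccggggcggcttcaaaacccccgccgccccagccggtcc
Tgfbr2: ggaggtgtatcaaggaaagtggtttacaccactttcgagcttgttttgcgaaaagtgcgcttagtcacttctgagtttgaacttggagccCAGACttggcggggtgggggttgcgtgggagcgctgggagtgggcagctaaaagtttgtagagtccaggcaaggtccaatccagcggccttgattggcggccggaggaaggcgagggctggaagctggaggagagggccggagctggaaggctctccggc
Smad3: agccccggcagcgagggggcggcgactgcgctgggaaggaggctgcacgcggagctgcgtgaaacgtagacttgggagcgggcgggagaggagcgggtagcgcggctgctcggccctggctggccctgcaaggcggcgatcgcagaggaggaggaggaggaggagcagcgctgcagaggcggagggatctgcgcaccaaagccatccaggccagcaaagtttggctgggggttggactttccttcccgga

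TGANTCA was in 6.75% of the 32851 promoters of the same length, and in none of the promoters matched to the 10 genes. CAGAC was in 42.2% of all promoters and once each in the promoters of *Tgfbr2* and *Smurf2* and in 1 of 2 promoters of *Tgfbr1*. In *Tgfbr2* it starts at -160 from the transcription start, and in *Smurf2* at -203. GC content was 75.2% in the *Tgfb1* promoter, 69.2% in that of *Smad3* and 58.4% in that of *Tgfbr2*. A match describes these letters in this window only, and its absence says nothing about the factor.

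*Tgfb1*, the ligand gene, lies at chr7:25687002-25705077 (plus strand, GRCm38) and its longest coding transcript has 7 exons and 2175 nt. It was at 530, 340 and 373 normalized counts in WT replicates 1, 2 and 3, and at 216, 222 and 216 in replicates 1, 2 and 3 labelled Bach2-cKO. The 3 libraries labelled Bach2-cKO lay close together and below all WT libraries, of which WT replicate 1 was the highest. The means were 414 ± 101 (SD, n = 3) and 218 ± 3.85 (SD, n = 3), and the log2FC was -0.90 ± 0.27 (SE), with a 95% confidence interval of -1.50 to -0.30. Limma gave an unadjusted p of 0.00752 and an adjusted p of 0.151. Without WT replicate 1 the log2FC was -0.71, and its range with each library left out in turn was -1.03 to -0.71. In bulk RNA, fewer cells that express *Tgfb1* and less of its RNA per cell cannot be told apart.

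*Tgfbr2*, the type II receptor gene, lies at chr9:116084293-116175360 (minus strand, GRCm38), with 8 exons and 8092 nt in its longest transcript. It was at 443, 740 and 662 normalized counts in WT replicates 1, 2 and 3, and at 1539, 1189 and 956 in replicates 1, 2 and 3 labelled Bach2-cKO. All libraries labelled Bach2-cKO were above all WT libraries, and WT replicate 1 was the lowest of the 6. The means were 615 ± 154 (SD, n = 3) and 1228 ± 293 (SD, n = 3), and the log2FC was 1.0 ± 0.27 (SE), with a 95% confidence interval of 0.41 to 1.59. Limma gave an unadjusted p of 0.00352 and an adjusted p of 0.141. Without WT replicate 1 the log2FC was 0.78, and the adjusted p of DESeq2 on the 5 libraries was 0.0852.

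*Tgfbr1*, the type I receptor gene, lies at chr4:47353222-47414931 (plus strand, GRCm38). It was at 270, 459 and 394 normalized counts in WT replicates 1, 2 and 3, and at 505, 637 and 418 in replicates 1, 2 and 3 labelled Bach2-cKO. Replicate 3 labelled Bach2-cKO lay between WT replicates 2 and 3, so the groups overlapped. The log2FC of 0.49 ± 0.28 (SE) had a limma adjusted p of 0.338, and without WT replicate 1 it was 0.27.

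*Smad2* and *Smad3*, the SMAD genes whose proteins the receptor phosphorylates, were on opposite sides in the comparison. *Smad2*, at chr18:76241580-76310963 (plus strand, GRCm38), was at 778, 483 and 487 normalized counts in WT replicates 1, 2 and 3, and at 393, 369 and 446 in replicates 1, 2 and 3 labelled Bach2-cKO. *Smad3*, at chr9:63646767-63757994 (minus strand, GRCm38), was at 161, 145 and 107 in WT replicates 1, 2 and 3, and at 293, 249 and 194 in replicates 1, 2 and 3 labelled Bach2-cKO. *Smad2* was lower and *Smad3* higher in all 3 libraries labelled Bach2-cKO than in any WT library. The log2FC of *Smad2* was -0.50 ± 0.26 (SE, limma adjusted p = 0.294), and without WT replicate 1, where it was highest, it was -0.27. The log2FC of *Smad3* was 0.83 ± 0.32 (SE, limma adjusted p = 0.202), and without WT replicate 1 it was 0.95. With each library left out in turn it ran from 0.66 to 0.98. Limma's unadjusted p for *Smad3* was 0.108 without WT replicate 3. It was 0.104 and 0.0825 without replicates 1 and 2 labelled Bach2-cKO. The limma 95% confidence interval reached from -1.08 to 0.08 for *Smad2* and from 0.11 to 1.55 for *Smad3*.

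*Smad4*, whose protein joins both receptor-activated SMADs, lies at chr18:73639009-73703780 (minus strand, GRCm38). It was at 508, 469 and 361 normalized counts in WT replicates 1, 2 and 3, and at 603, 541 and 512 in replicates 1, 2 and 3 labelled Bach2-cKO. The lowest library labelled Bach2-cKO and the highest WT library, at 512 and 508, were nearly level. The groups overlapped once the libraries were rescaled to the same median. Its log2FC was 0.32 ± 0.23 (SE, limma adjusted p = 0.432), 0.42 without WT replicate 1 and 0.18 without WT replicate 3.

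*Smad7*, the inhibitory SMAD gene and itself a target of the pathway, lies at chr18:75367529-75395935 (plus strand, GRCm38). It was at 7.07, 75.2 and 37.4 normalized counts in WT replicates 1, 2 and 3, and at 51.7, 159 and 49.1 in replicates 1, 2 and 3 labelled Bach2-cKO. The groups overlapped, and the spread within each of them was wide. The log2FC of 1.39 ± 0.85 (SE, limma adjusted p = 0.359) was 0.47 without WT replicate 1 and 2.09 without WT replicate 2. These values rest on 35 to 238 reads in the 5 libraries with recovered reads and on 7 in WT replicate 1 if a step is 1 read. The other 9 genes had 103 to 1774 reads in those 5 libraries, so counting error is smaller for them than for *Smad7* in the same library.

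*Smurf2*, which encodes the ubiquitin ligase that SMAD7 brings to the receptor, lies at chr11:106820066-106920715 (minus strand, GRCm38). It was at 283, 491 and 376 normalized counts in WT replicates 1, 2 and 3, and at 692, 660 and 499 in replicates 1, 2 and 3 labelled Bach2-cKO. The highest WT library, at 491, was just under the lowest library labelled Bach2-cKO, at 499, and the groups overlapped once the libraries were rescaled to the same median. Its log2FC was 0.71 ± 0.27 (SE), with a limma unadjusted p of 0.0260 and an adjusted p of 0.198. Without WT replicate 1 it was 0.51.

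The corepressor genes *Ski* and *Skil* differed in sign with limma on all libraries, but after removal of the length and GC trend the log2FC of *Ski* was -0.0085 and that of *Skil* -0.44. *Ski*, at chr4:155154075-155222592 (minus strand, GRCm38), was at 202, 488 and 371 normalized counts in WT replicates 1, 2 and 3, and at 501, 548 and 436 in replicates 1, 2 and 3 labelled Bach2-cKO. *Skil*, at chr3:31095058-31122577 (plus strand, GRCm38), was at 574, 554 and 503 in WT replicates 1, 2 and 3, and at 403, 464 and 477 in replicates 1, 2 and 3 labelled Bach2-cKO. The groups overlapped for *Ski*, where WT replicate 1 was lowest, and did not overlap for *Skil*. The log2FC was 0.57 ± 0.33 for *Ski* and -0.28 ± 0.22 for *Skil* (SE), with limma adjusted p-values of 0.337 and 0.460. Without WT replicate 1 that of *Ski* was 0.21 and that of *Skil* was -0.24.

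**Figure D2:**
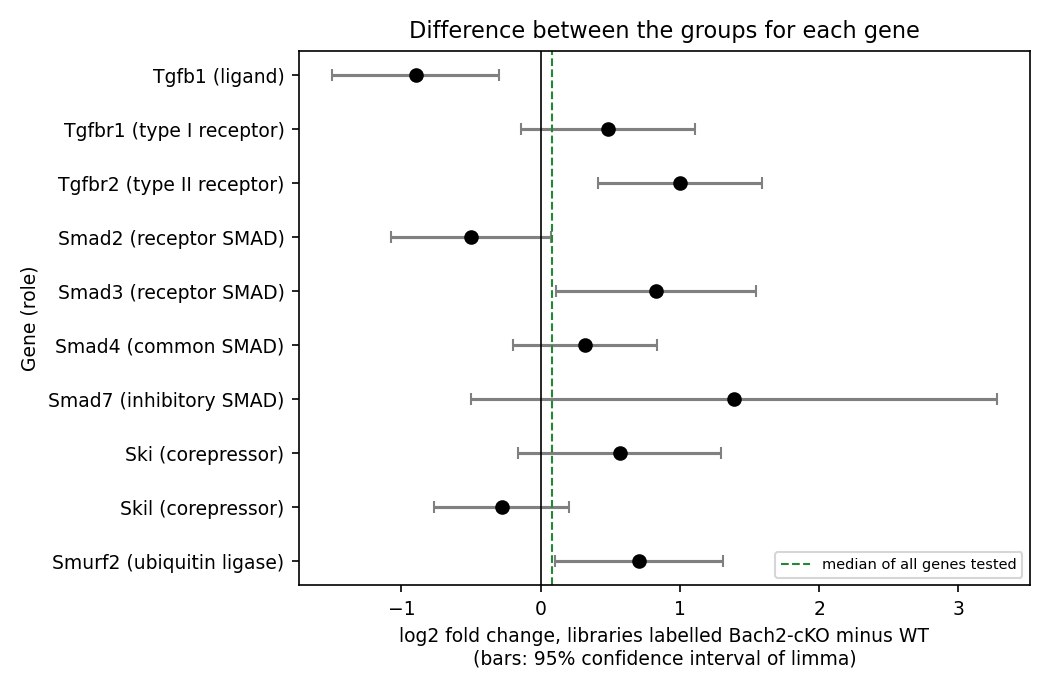
Log2FC of each gene (points) with limma's 95% confidence interval (bars), for libraries labelled Bach2-cKO minus WT, with the median of all genes tested as a dashed line at 0.08. The interval lies below 0 for *Tgfb1*, lies above 0 for *Tgfbr2*, *Smad3* and *Smurf2*, and includes 0 for the other 6 genes.

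Long transcripts tended to have higher log2FC values. Across 11263 genes, which are not independent replicates, Spearman's rho of log2FC with the longest transcript's length was 0.339, and with its GC content 0.135. The 10 genes run from 2175 nt for *Tgfb1* to 8092 nt for *Tgfbr2*, and *Smad2* has 8089 nt. After subtraction of a smooth length and GC trend from every library, the log2FC was -1.08 for *Tgfb1* (limma unadjusted p = 0.000845), 0.57 for *Tgfbr2* (unadjusted p = 0.0159), and -0.79 for *Smad2* (unadjusted p = 0.0266). That of *Smad3* was 0.39 (unadjusted p = 0.201), with overlap between the groups, that of *Smurf2* was 0.44 (unadjusted p = 0.0741), also with overlap, and that of *Ski* was -0.0085. The median over the 10 genes was then 0.29, beside 0.10 over all genes. *Tgfbr1* was also higher without overlap in this setting, and *Smad4* overlapped. *Tgfbr2* was higher and *Tgfb1*, *Smad2* and *Skil* were lower without overlap in this setting and after rescaling to the same median. Of all genes, 13.1% were higher and 9.90% lower without overlap with the trend removed, and 12.0% and 14.5% after rescaling.

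**Figure D3:**
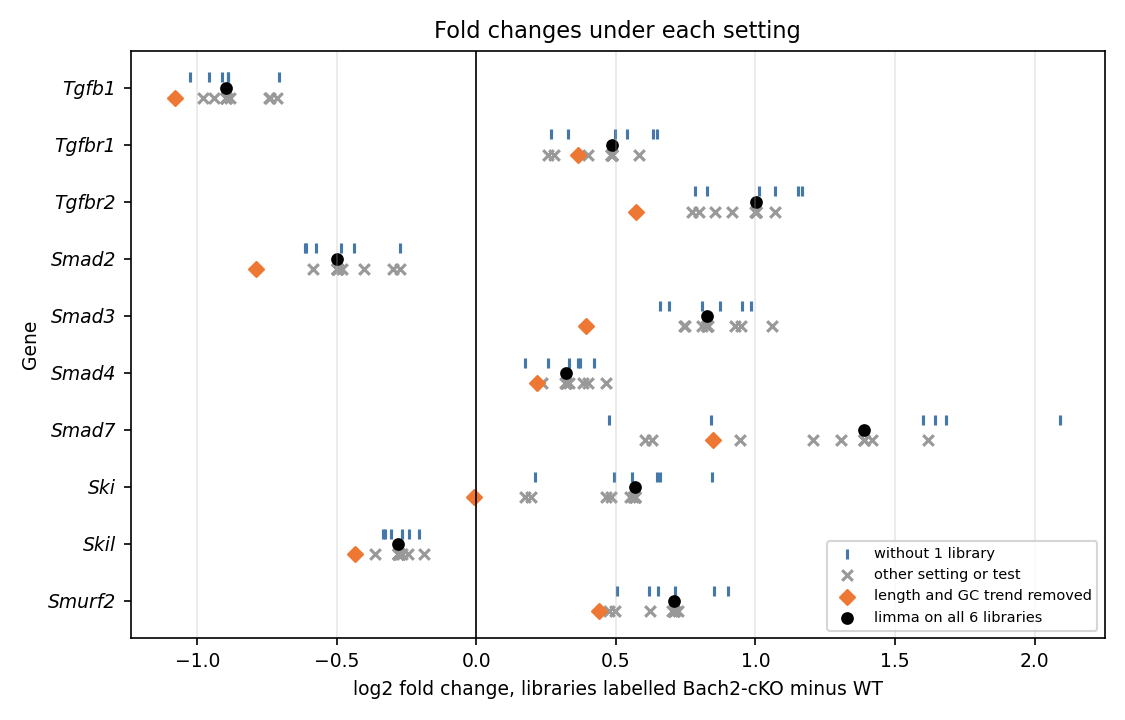
Log2FC of each gene, libraries labelled Bach2-cKO minus WT, with limma on all 6 libraries (black points), without 1 library (blue ticks), after removal of the length and GC trend (orange diamonds) and under the other settings and tests (grey crosses). *Tgfb1* lies between -1.08 and -0.71 and *Tgfbr2* between 0.57 and 1.17 in all of them, and *Ski* passes 0 with the trend removed.

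Levels were compared between genes as normalized counts per kilobase of the longest transcript, and neighbours in the order were taken as apart where their means differed by more than their SDs added together. In WT, the level of *Tgfb1* was the highest at 191 ± 46.6 (SD, n = 3), followed by *Smad4* at 132 ± 22.5 (SD, n = 3), and these neighbours were not apart. *Skil*, *Tgfbr2*, *Smurf2*, *Smad2*, *Tgfbr1* and *Ski* came next with mean levels from 81.0 down to 64.0 per kilobase. *Skil* was apart from *Smad4* above it, and no neighbours among the 6 were apart. *Smad3* was at 27.1 ± 5.47 (SD, n = 3) and *Smad7* at 9.32 ± 7.97 (SD, n = 3) per kilobase, each apart from the gene above it. In the libraries labelled Bach2-cKO the order of the levels was different. *Smad4* came first at 163 ± 13.7 (SD, n = 3) per kilobase and *Tgfbr2* next at 152 ± 36.2 (SD, n = 3), which were not apart. *Smurf2* was at 117 ± 19.5 (SD, n = 3), *Tgfb1* at 100.2 ± 1.77 (SD, n = 3), *Tgfbr1* at 90.4 ± 19.1 (SD, n = 3) and *Ski* at 89.6 ± 10.2 (SD, n = 3) per kilobase. No neighbours among these genes, from *Smurf2* to *Ski*, were apart. *Skil* at 66.7 ± 5.83 (SD, n = 3), *Smad2* at 49.8 ± 4.85 (SD, n = 3), *Smad3* at 48.2 ± 9.67 (SD, n = 3) and *Smad7* at 20.3 ± 14.7 (SD, n = 3) followed. Of these, *Skil* was apart from *Ski* above it and from *Smad2* below it, whereas *Smad2* and *Smad3* were not apart.

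Ratios between genes within a library do not depend on its size factor. The 4 ratios below were chosen after the values were seen. The ratio of *Smad3* to *Smad2* normalized counts was 0.208, 0.299 and 0.220 in WT replicates 1, 2 and 3, and 0.744, 0.673 and 0.436 in replicates 1, 2 and 3 labelled Bach2-cKO. The ratio of *Tgfbr2* to *Tgfb1* was 0.836, 2.18 and 1.77 in WT and 7.13, 5.34 and 4.43 in the libraries labelled Bach2-cKO. The groups did not overlap in either ratio, which the values of the 4 genes had already fixed, and the geometric means were 2.52 times and 3.74 times as high in the libraries labelled Bach2-cKO. The receptor ratio, *Tgfbr2* to *Tgfbr1*, was 1.64, 1.61 and 1.68 in WT, where it varied little, and 3.04, 1.87 and 2.29 in the libraries labelled Bach2-cKO, 1.43 times as high. The corepressor ratio, *Ski* to *Skil*, was 0.351, 0.881 and 0.738 in WT and 1.24, 1.18 and 0.914 in the libraries labelled Bach2-cKO, 1.80 times as high. After removal of the length and GC trend, the *Smad3* to *Smad2* ratio was 2.27 times and the *Tgfbr2* to *Tgfb1* ratio 3.14 times as high. The groups then overlapped in the receptor ratio, at 1.15 times, and in the corepressor ratio, at 1.35 times. Without WT replicate 1 the *Smad3* to *Smad2* ratio was 2.34 times, the *Tgfbr2* to *Tgfb1* ratio 2.80 times and the corepressor ratio 1.37 times as high.

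**Figure D4:**
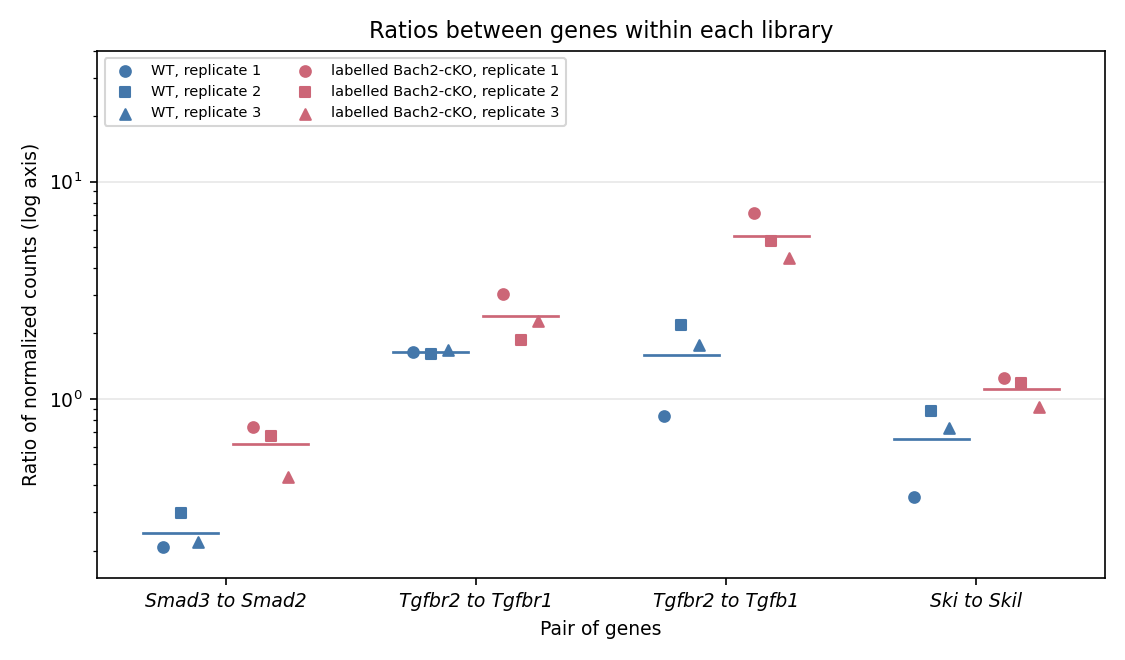
Ratio of the normalized counts of a pair of genes (log axis) within each library, for 4 pairs, with WT in blue, the libraries labelled Bach2-cKO in red and a line at each group's mean. All 3 libraries labelled Bach2-cKO lie above all 3 WT libraries in each pair, with *Smad3* to *Smad2* between 0.208 and 0.299 in WT and between 0.436 and 0.744 in the other group.

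Other genes of the pathway were taken from 6 lists with 68 genes, of which 61 were in the table and 49 were tested. Limma called 0 of the 49 at the thresholds of the methods. At an unadjusted p under 0.05, 8 were higher and 4 lower in the libraries labelled Bach2-cKO, beside 10.1% and 10.2% of all genes tested, and the log2FC was above 0 for 35 and below 0 for 14, with a median of 0.42. Without overlap between the groups, 12 were higher and 3 lower, beside 14.6% and 12.2% of all genes. Over all genes tested the log2FC was above 0 for 6185 and below 0 for 5111. *Uchl5*, *Fkbp1a* and *Ncor1*, named below, had the other sign after removal of the length and GC trend.

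Of 6 tested genes for ligands and their release, 2 were higher and 0 lower at an unadjusted p under 0.05, where all genes had 10.1% and 10.2%. *Tgfb3*, which encodes another TGF-β isoform, was at 0, 10.1 and 9.36 normalized counts in WT replicates 1, 2 and 3, and at 32.5, 36.2 and 39.9 in replicates 1, 2 and 3 labelled Bach2-cKO. It was thus low in every library, lowest in WT replicate 1, and above every WT value in the libraries labelled Bach2-cKO. Its log2FC was 2.93 ± 1.10 (SE, limma adjusted p = 0.192), and 1.79 without WT replicate 1. *Tgfb3* passed the filter on low values only through the libraries labelled Bach2-cKO, since among the WT libraries only replicate 2 reached 10. Its p-value, and its place among the genes counted as higher here and over the 6 lists together, are thus not independent of that filter. *Furin*, which encodes the protease that cleaves the TGF-β precursor, had a log2FC of 1.09 (limma adjusted p = 0.193), and 0.48 after trend removal (unadjusted p = 0.225). *Itgb8*, an integrin subunit gene of latent TGF-β release and the most abundant of this list, was at 220, 598 and 825 in WT and at 315, 405 and 156 in the libraries labelled Bach2-cKO. The overlap rests on WT replicate 1, without which the log2FC of -0.81 was -1.37 (limma unadjusted p = 0.00325, adjusted p = 0.143), and DESeq2 on the 5 other libraries gave it an adjusted p of 0.0280. Other libraries moved it the other way, to -0.42 without WT replicate 3 (unadjusted p = 0.436) and -0.42 without replicate 3 labelled Bach2-cKO (unadjusted p = 0.442).

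Of the 7 tested genes for other receptors of the superfamily, 0 were at a limma unadjusted p under 0.05 in either direction. The most abundant, the co-receptor gene *Tgfbr3*, was at 139, 230 and 172 normalized counts in WT and 299, 208 and 255 in the libraries labelled Bach2-cKO, and the groups overlapped. The 2 other SMAD genes tested, *Smad1* and *Smad5*, which act in bone morphogenetic protein signaling, overlapped as well. *Smad5*, the more abundant of them, had a log2FC of 1.29 ± 0.67 (SE, limma adjusted p = 0.291), and 0.41 without WT replicate 1.

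Of 13 ubiquitin ligases and deubiquitinases of the pathway, 2 were higher and 2 lower at an unadjusted p under 0.05 (10.1% and 10.2% over all genes). *Smurf1*, the paralog of *Smurf2*, was at 28.3, 61.7 and 38.5 normalized counts in WT and at 87.2, 109 and 91.0 in the libraries labelled Bach2-cKO, without overlap. Its log2FC was 1.21 ± 0.48 (SE, limma adjusted p = 0.204), and limma with library weights called it higher. It was 0.64 after trend removal, with an unadjusted p of 0.191, and the unadjusted p on 5 libraries was 0.0581 with edgeR and 0.0603 with DESeq2. The groups overlapped for the other gene that was higher, *Rnf111*. *Usp15* and *Uchl5*, which encode deubiquitinases that act on the receptor, were lower without overlap, with log2FC values of -0.67 and -0.62 (limma adjusted p = 0.156 and 0.185). That of *Uchl5*, the most abundant of the list, was 0.071 after trend removal (unadjusted p = 0.760), while that of *Usp15* was -0.87 (unadjusted p = 0.00234).

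Of 8 tested SMAD cofactor genes, 3 were higher and 1 was lower at an unadjusted p under 0.05, against 10.1% and 10.2% of all genes. *Ep300* and *Crebbp*, the genes of the histone acetyltransferase coactivators p300 and CBP, had log2FC values of 0.84 and 0.85 (limma adjusted p = 0.157 and 0.172). *Ep300* was at 431, 562 and 548 normalized counts in WT and at 1173, 1007 and 645 in the libraries labelled Bach2-cKO. *Sp1*, which encodes a transcription factor that works with SMADs at many promoters, had a log2FC of 0.66 (limma adjusted p = 0.181), and *Tgif1*, a SMAD corepressor gene, one of -0.73 (limma adjusted p = 0.203). The groups did not overlap for any of these 4 genes. After trend removal their log2FC values were 0.37 for *Ep300*, 0.37 for *Crebbp*, 0.42 for *Sp1* and -0.27 for *Tgif1*, and none of the 4 kept an unadjusted p under 0.05 (0.0830, 0.123, 0.0659 and 0.311 in that order). The corepressor gene *Ncor1*, the most abundant of the list, had a log2FC of 0.14, and -0.27 with that trend removed.

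Of 13 adaptor and other regulator genes, 1 was higher and 1 lower at an unadjusted p under 0.05, with 10.1% and 10.2% over all genes. *Tab2*, an adaptor gene of the TAK1 kinase branch of the pathway, was at 564, 707 and 623 normalized counts in WT and at 1456, 1248 and 950 in the libraries labelled Bach2-cKO. The groups did not overlap, and the log2FC was 0.93 ± 0.23 (SE, limma adjusted p = 0.141). The groups overlapped for the gene that was lower, *Ldlrad4*. The log2FC of *Tab2* was 0.69 after trend removal and 0.79 to 1.10 with each library left out in turn. *Fkbp1a*, whose protein FKBP12 binds the type I receptor, was the most abundant of the list, with a log2FC of -0.25 (limma adjusted p = 0.436).

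**Figure D5:**
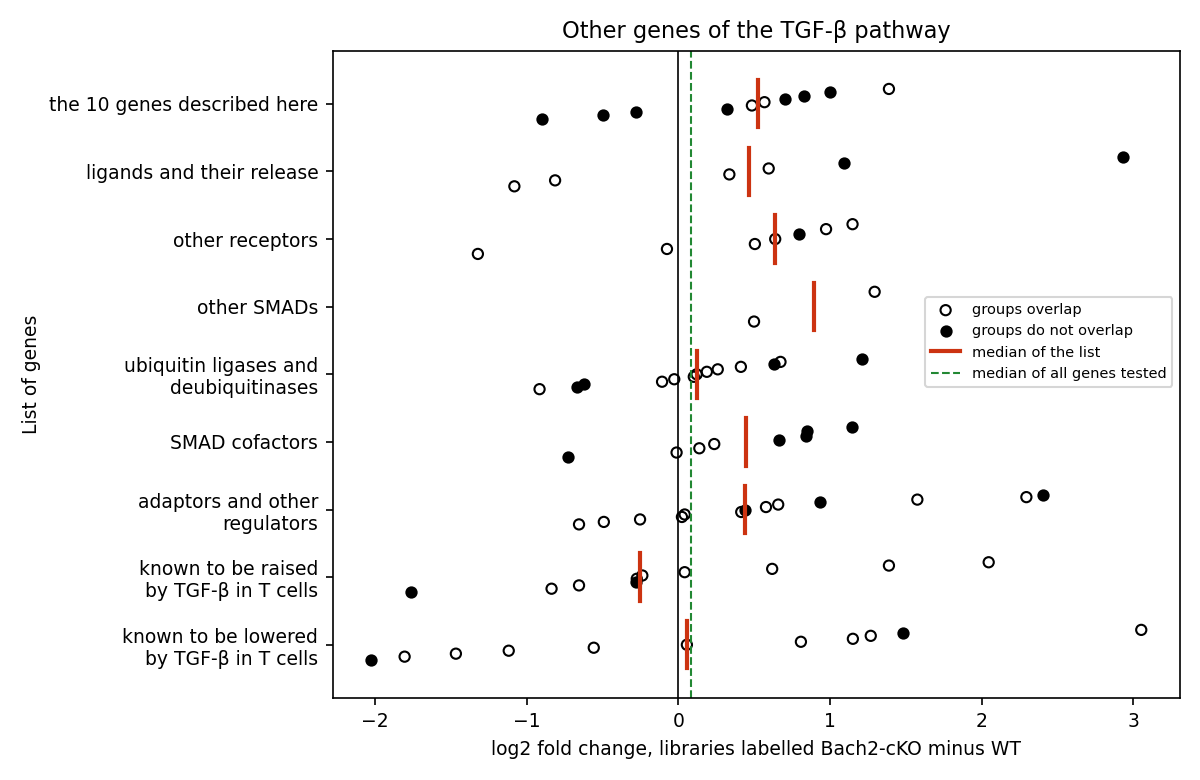
Log2FC, libraries labelled Bach2-cKO minus WT, of each tested gene (circles) by list, filled where the groups do not overlap, with each list's median in red and the median of all genes tested, 0.08, as a dashed line. The medians are 0.53 for the 10 genes (0.29 with the length and GC trend removed), -0.25 for genes that TGF-β is known to raise in T cells and 0.06 for genes it is known to lower.

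Genes whose transcription TGF-β is known to raise or lower in T cells were examined as well. Of 10 tested genes that it raises, 0 were higher and 2 lower at a limma unadjusted p under 0.05, beside 10.1% and 10.2% of all genes, and the median log2FC was -0.25, beside 0.08 over all genes. *Foxp3*, which marks regulatory T cells, was at 222, 315 and 344 normalized counts in WT and at 47.3, 140 and 91.0 in the libraries labelled Bach2-cKO, without overlap, with a log2FC of -1.76 (limma adjusted p = 0.141), and *Ldlrad4* was lower, with overlap between the groups. *Nt5e*, the gene of CD73 and the most abundant of the list, had a log2FC of -0.24 (limma adjusted p = 0.533). *Smad7* and *Skil*, which belong to the 10 genes, are also in this list, with log2FC values of 1.39 and -0.28. Of 11 genes that TGF-β lowers, 2 were higher and 2 lower at a limma unadjusted p under 0.05, beside the same shares of all genes, and the median was 0.06. Without overlap, *Gata3*, the regulator of type 2 helper cells, was higher, with a log2FC of 1.48, and the cytokine gene *Ifng* was lower, with one of -2.02 (limma adjusted p = 0.141 for each). Of the other 2, *Gzmb* was higher and *Eomes* lower, each with overlap between the groups. DESeq2 on 5 libraries called *Foxp3*, *Gata3* and *Ifng* past the thresholds in the same directions, as did limma with library weights, which also called *Gzma* higher. *Gzma*, the most abundant of this list, was at 107, 656 and 152 in WT and at 168, 1589 and 440 in the libraries labelled Bach2-cKO, with overlap.

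Markers of the sorted cells and of other cells were examined beside these genes. Of 10 Tfh markers all were tested, 5 had a log2FC above 0 and 5 below 0, and 2, 1 of them *Bcl6*, were higher and 1 was lower at an unadjusted p under 0.05 (10.1% and 10.2% over all genes), each without overlap. The markers *Cxcr5*, *Pdcd1* and *Bcl6* were present in each library, and the most abundant was *Sh2d1a*. Their summed normalized counts were 21876, 26339 and 35992 in WT replicates 1, 2 and 3, and 27274, 20047 and 26398 in replicates 1, 2 and 3 labelled Bach2-cKO. Of 5 T cell markers, led by *Cd3d*, 4 had a log2FC below 0, and *Cd4* had one of 0.49. At an unadjusted p under 0.05, *Cd4* was higher and 3 were lower. Their sums were 48614, 46729 and 60834 in WT and 37173, 37503 and 43749 in the libraries labelled Bach2-cKO, without overlap. All 4 regulatory T cell markers had a log2FC below 0, 1 of them, *Foxp3*, at an unadjusted p under 0.05, with sums of 5030, 5799 and 7052 in WT and 6308, 5043 and 4267 in the libraries labelled Bach2-cKO, most of it *Ikzf2*. Of 5 naive T cell markers, led by *Tcf7*, 2 had a log2FC above 0 and 3 below 0, with 1 higher and 1 lower at an unadjusted p under 0.05. Their sums were 9864, 9547 and 8110 in WT and 11682, 10266 and 10066 in the libraries labelled Bach2-cKO, higher without overlap.

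Of 7 B cell markers 5 were tested and 4 of these had a log2FC below 0, 1 of them at an unadjusted p under 0.05, with sums of 206, 785 and 495 in WT and 214, 248 and 272 in the libraries labelled Bach2-cKO. The most abundant was *Cd79b*. Of 7 myeloid markers 5 were tested, of which 3 had a log2FC above 0 and 2 below 0, and 1 was lower at an unadjusted p under 0.05. The 7 summed to 2226, 7932 and 3932 in WT and to 1858, 5261 and 1761 in the libraries labelled Bach2-cKO, most of it *Lyz2*. The CD8 markers *Cd8a* and *Cd8b1*, of which *Cd8b1* was the more abundant, summed to 176, 786 and 552 in WT and to 361, 332 and 413 in the libraries labelled Bach2-cKO. Of the platelet markers *Itga2b* was at 0 in 5 of the 6 libraries. Of 5 stroma and endothelium markers *Pecam1* held nearly all of the sum, at 445 to 581 normalized counts, and of the epithelial markers *Epcam* was at 81.8 to 147. The groups overlapped in the sums of the regulatory T, B, myeloid and CD8 T cell lists. For the B and CD8 T cell lists the overlap rests on WT replicate 1. Every library labelled Bach2-cKO had lower sums of these 2 lists than WT replicates 2 and 3. The part of any of these cells in the levels of the 10 genes was not tested.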

How the data were processed

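RNA was sequenced from Tfh cells of 3 WT samples and 3 samples labelled Bach2-cKO. The deposited signal is a normalized count, made by the authors by counting reads per gene and dividing by a size factor. The paper's methods name Tophat2, HTSeq and DESeq2, and the submitters' processing notes name STAR 2.5.2b, DESeq2 1.20.0, R 3.5.1, GRCm38 and mm10. The strand setting and the selection of genes for the table are not given in the sources used here.

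Limma 3.58.1 tested log2(value + 1) (R 4.3.3, trended variance, Benjamini-Hochberg adjustment) on the 11296 genes at 10 or more in at least 3 libraries. Limma took the place of the DESeq2 of the methods because the values are not raw counts. Fold changes on this scale understate the change of low genes. In each library 100% of the values were whole multiples of 1 step, within 0.01 reads. edgeR 4.0.16 and DESeq2 1.42.0 used the whole reads of 5 libraries. The step of WT replicate 1, 1.01, is too near a power of 10 for reads to be accepted as recovered. Of genes, 14328 were matched by symbol and 364 by an older symbol to GENCODE M21 (GRCm38) for position, transcript length and GC content, 52 were not matched, and promoters came from RefSeq (GRCm38.p6). The trend in length and GC content was fitted with mgcv 1.9.3. PCR copies were not told apart. Limma, its replicate block, edgeR, DESeq2 and the trend removal were tested on simulated data. The planted changes were larger than the log2FC of any of the 10 genes on all libraries, so changes of their size were not tested. Library weights and fits with a library left out were not part of the simulation.

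Named were the 10 genes, *Bach2*, from each other pathway list and the 2 lists of TGF-β targets at most 4 genes per direction with the smallest p among those with no overlap and an unadjusted p under 0.05, and the most abundant gene of each list, which for marker lists was the only one. *Smad1*, *Cd4*, *Cxcr5*, *Pdcd1*, *Bcl6*, *Cd8a*, *Rnf111*, *Ldlrad4*, *Gzmb*, *Eomes*, *Bach2it1* and *Bach2os* fall outside this rule and were named after their values were seen, and 1 gene is not reported here. The 10 genes and the lists were chosen with earlier results of these data known. Alternatives were a replicate block, each library left out, library weights, count tests, and other pseudocounts, filters, normalizations and variance models. The ratios, and the settings run for them and for the other pathway genes, were chosen after the data were seen.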

Additional observations from a re-analysis of the deposited data

How the results depend on the processing

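The median log2 fold change of the 10 genes, 0.53, was 0.29 after removal of the length and GC trend, and 0.34 to 0.75 with each library left out in turn. Limma with library weights called 561 genes higher and 567 lower, with 9 of the 10 and 5328 of all 11296 genes at an unadjusted p under 0.05, and DESeq2 on 5 libraries called 33 higher and 57 lower, against 0 and 0 with limma. With each library left out, 0 genes were called in either direction, and 2 to 6 of the 10 and 1074 to 3070 of all genes had an unadjusted p under 0.05. Without replicate 3 labelled Bach2-cKO, 182 genes were higher and 325 lower at an adjusted p under 0.05, and the adjusted p of *Tgfbr2* was 0.0523. After removal of the length and GC trend the log2 fold change of *Ski* was -0.0085, that of *Uchl5* 0.071, that of *Fkbp1a* 0.20 and that of *Ncor1* -0.27, each opposite in sign to limma on all libraries, and *Ncor1* ran from -0.015 to 0.22 with each library left out. The cause was not tested. Of the fold changes of single genes under alternatives, 5 changed sign, 11 passed the thresholds with the same direction and the other 541 had the same direction. The 541 include settings that cannot move a log2 fold change: the other filters, the fit without a variance trend and the replicate block. These counts do not speak for size: with each library left out, *Smad7* ran from 0.47 to 2.09 and *Gzma* from 0.30 to 1.94. With the replicate number as a replicate block, limma called 0 genes and 2051 genes had an unadjusted p under 0.05. Each block holds a library of each group and cannot move a log2 fold change, so the median of the 10, 0.53, was fixed by the design. As a check of pairing, deviations from the group means correlated at -0.07, 0.12 and -0.04 between libraries of equal number. Only WT replicate 2 correlated best with its own number. With 3 libraries in each group these correlations cannot decide whether the samples were paired. *Smad7* and *Tgfb3* have few reads, and the part of depth in their spread was not tested.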
